A study of Mus musculus with 6 samples.

Results

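T cell genes were followed in 6 subcutaneous tumours of C57BL/6J mice, of which 3 came from the high cholesterol diet (HCD) and 3 from the normal diet (ND). The 34 genes, of 34745 in the deposited table, were chosen by name as parts of the T cell receptor complex, its signalling, costimulation and lineage control, and each matched 1 row of the table. Per the labels, all 6 tumours came from B16F10 cells, a mouse melanoma line, injected into the right flank, and the diets are named without their composition. RNA was sequenced from whole tumour tissue, so a level here mixes tumour, stroma and immune cells, and fewer T cells cannot be told apart from less of the RNA per T cell. Beyond a number from 1 to 3 in each diet, the labels do not say whether the tumours came from separate animals, and p-values here therefore reflect the spread among 6 samples, which may be technical. The libraries held 20351637 to 26228074 counts. Of 7 pigment cell genes listed, Tyr, Dct, Mlana and Oca2 had 0 counts in all 6 libraries. The other 3 had counts, and of these Pmel had 9 to 21 counts in each library. The hepatocyte gene Alb averaged 3682 ± 697 CPM in HCD tumours and 3547 ± 451 CPM in ND tumours (SD, n = 3 each). The tumours are therefore called by their label, tumours labelled as B16F10. CPM, the count of a gene scaled to a common library size, was taken with library totals scaled by TMM factors.

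The T cell receptor binds a peptide held by an MHC molecule and has no signalling tail of its own. Its signal passes through the CD3 chains and the zeta chain, whose tyrosines are phosphorylated by the kinase Lck, which is held at the coreceptors CD4 and CD8, and then bind the kinase Zap70. CD4 marks helper and regulatory T cells, which see MHC class II, and CD8 marks cytotoxic T cells, which see MHC class I. In tumours, T cells of both kinds are among the cells that enter from the blood.

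The label held in all 6 libraries. The defining genes Cd3e, Cd3d, Cd3g, Cd247, Trbc2, Lck, Cd2 and Cd5 had counts in every library, as did 33 of the 34 genes, the exception being Cd40lg with 0 counts in ND 1. Set per gene length (FPKM), 20 of the 34 genes averaged over 1 FPKM and 14 under it. Tcf7 at 38.4 FPKM and Thy1 at 26.7 FPKM stood above all others, followed by Trbc2 at 9.62 FPKM, Il2rb at 6.87 FPKM and Cd3g at 6.62 FPKM (means over 6 libraries). The lowest were Lef1 at 0.0620 FPKM, Cd40lg at 0.109 FPKM and Skap1 at 0.110 FPKM.

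The 3 CD3 genes lie side by side on chromosome 9 (GRCm38, the mm10 build). Cd3g (ENSMUSG00000002033, 44969572 to 44980431, minus strand) and Cd3d (ENSMUSG00000032094, 44981786 to 44987339, plus strand) are read in opposite directions from starts 1355 bases apart, and Cd3e (ENSMUSG00000032093, 44998740 to 45009627, minus strand) starts 27841 bases from Cd3d. The 250 bases before each start are shown because these 3 genes are neighbours and serve below as the measure of T cell level in a library, and Lck (ENSMUSG00000000409, chromosome 4, 129548344 to 129573641, minus strand) is shown beside them as the kinase that acts on their products. The sequences and starts are those of RefSeq on GRCm38.p6, whose Cd3e start lies inside the gene bounds given above, written 5′ to 3′ along the gene. Capitals mark motifs searched on both strands. ETS factors were given by the letters CAGGAAG, a form of the core that they bind. RUNX factors were given by TGTGGT. TCF and LEF factors were given by CTTTGAT, or by the same letters with a final A (CTTTGAA). The E-box searched was CAGCTG. The TATA box was searched as TATAAA.
Cd3g, chr9:44980432-44980681: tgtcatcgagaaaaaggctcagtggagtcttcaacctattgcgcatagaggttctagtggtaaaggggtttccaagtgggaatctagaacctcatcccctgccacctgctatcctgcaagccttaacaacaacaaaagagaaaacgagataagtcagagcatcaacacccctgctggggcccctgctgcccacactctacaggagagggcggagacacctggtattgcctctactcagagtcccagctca
Cd3d, chr9:44981536-44981785: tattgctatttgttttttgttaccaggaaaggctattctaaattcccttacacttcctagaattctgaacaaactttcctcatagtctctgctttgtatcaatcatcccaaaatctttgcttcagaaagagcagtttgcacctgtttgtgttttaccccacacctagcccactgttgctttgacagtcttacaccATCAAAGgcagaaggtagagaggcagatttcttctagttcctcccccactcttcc
Cd3e, chr9:45009612-45009861: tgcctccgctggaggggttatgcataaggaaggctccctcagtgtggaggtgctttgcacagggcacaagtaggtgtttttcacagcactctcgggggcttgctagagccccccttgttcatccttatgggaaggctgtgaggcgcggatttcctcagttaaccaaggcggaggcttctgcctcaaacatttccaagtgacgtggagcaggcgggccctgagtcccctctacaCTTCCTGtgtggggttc
Lck, chr4:129573642-129573891: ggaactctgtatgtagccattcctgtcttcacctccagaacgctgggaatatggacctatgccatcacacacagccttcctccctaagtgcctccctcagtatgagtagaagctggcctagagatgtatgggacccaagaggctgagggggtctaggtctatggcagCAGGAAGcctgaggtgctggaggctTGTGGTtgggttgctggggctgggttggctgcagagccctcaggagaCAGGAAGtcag
The Cd3g window held none of the 5 motifs, the Cd3d window held 1 TCF and LEF match, the Cd3e window 1 ETS match, and the Lck window 2 ETS matches and 1 RUNX match. No window of the 4 held a TATA box. The promoter table matched 22 of the 34 genes, of which 5 had the ETS letters (Cd247, Cd3e, Cd5, Il7r and Lck), against 10.8% of all 32851 promoters of this length. RUNX letters stood in 2 of the 22 against 14.0% of all promoters, and TCF and LEF letters in 2 against 7.5%. E-box letters stood in 3 of the 22 and in 4271 of all promoters, and TATAAA in 2 against 12.4%. A match is a string of letters, not a measured site.

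Across the libraries most T cell genes shared their lowest and their highest library. ND 1 had the lowest level of 32 of the 34 genes, the exceptions being Tcf7 and Thy1, and HCD 2 had the highest level of 28. Over all 15539 tested genes, ND 1 was lowest for 22.8% and HCD 2 highest for 23.0%. The geometric mean of Cd3e, Cd3d and Cd3g was 7.12, 12.01 and 4.92 CPM in HCD 1 to HCD 3, against 1.48, 5.34 and 5.50 CPM in ND 1 to ND 3. HCD 3 therefore lay below ND 2 and ND 3, and HCD 1 lay above all ND libraries.

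Set library against library, each of the 3 HCD tumours was above ND 1 in 33 of the 34 genes. HCD 2 was above ND 2 in 31 genes and above ND 3 in 31, and HCD 1 in 29 and 25. HCD 3 was above ND 2 in only 10 of the 34 genes and above ND 3 in 9. For all tested genes the share higher in the HCD library of a pair ran from 48.9% to 51.9%.

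**Figure D1:**
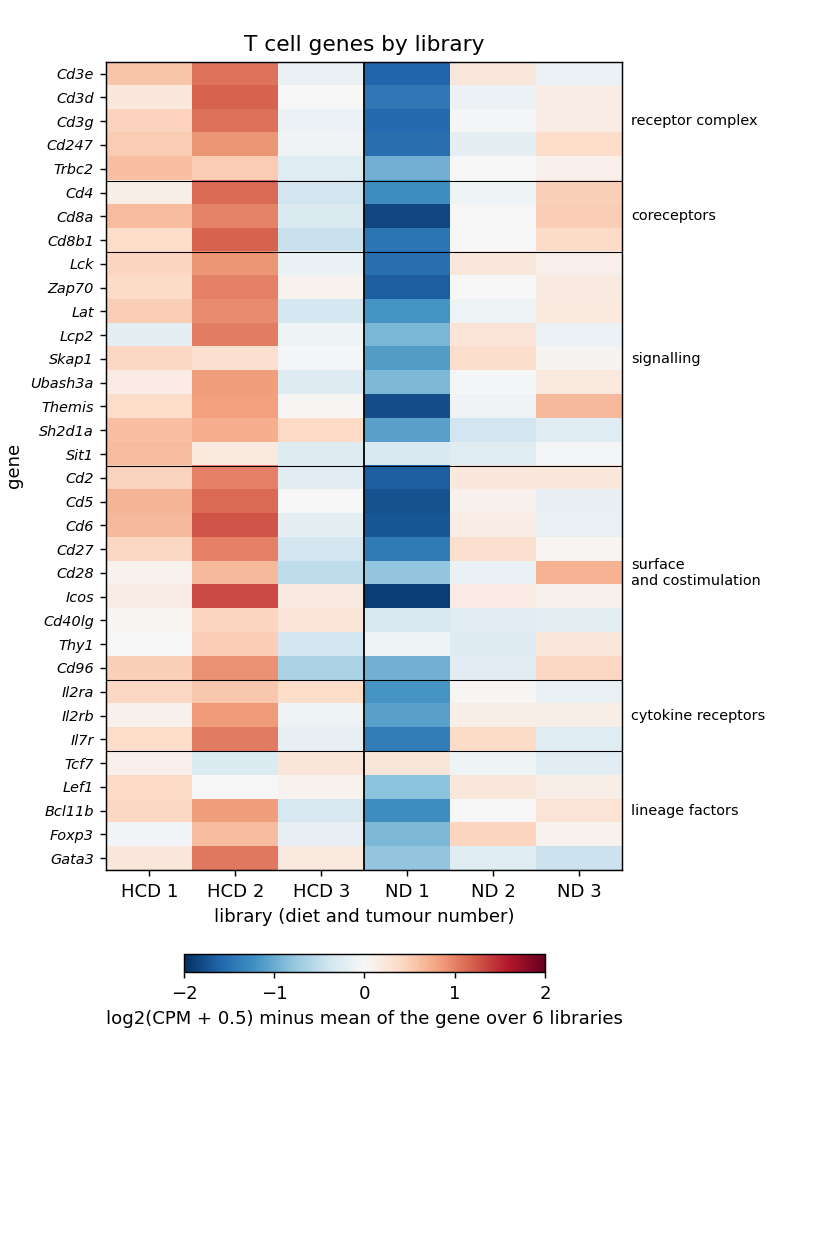
Level of each of the 34 T cell genes (rows, by role) in each library (columns, HCD left of ND), as log2(CPM + 0.5) centred on that gene's 6-library average, red above and blue below. HCD 2 is red and ND 1 blue in most rows, while HCD 3, ND 2 and ND 3 stay near 0.

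Between the diets, 32 of the 34 genes had enough counts for the test, all 32 had a positive log2 fold change of HCD over ND, and 53.0% of all tested genes did. Their median was 0.71, against 0.01 over all tested genes, with a range of 0.05 for Tcf7 to 1.71 for Sh2d1a. None passed the quasi-likelihood test of edgeR with Benjamini-Hochberg adjustment over all 15539 genes (adjusted p from 0.839 to 0.966), and 0% of all genes passed. At an unadjusted p under 0.05 there were 3 T cell genes, Sh2d1a, Gata3 and Il2ra, all higher in HCD tumours, where 5.30% of all tested genes reached that level, 1.81% higher and 3.48% lower in HCD tumours. Limma-voom called 0 of the T cell genes as well, with 3 at an unadjusted p under 0.05, where 4.96% of all its tested genes were. The DESeq2 Wald test also called 0, but it gave no adjusted p for many of them. Sh2d1a, Gata3 and Il2ra were among these, so they could not be called there. At an unadjusted p under 0.05 DESeq2 had 6 of 34 T cell genes. Of its 24783 genes, taken without the low count filter of the edgeR fit, 3.15% reached that level. DESeq2 called 5 genes lower in HCD tumours over all genes, none of them a T cell gene, and limma-voom called 0.

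The median varied with the libraries used. It was 0.42 without HCD 2, 0.30 without ND 1, 1.02 without HCD 3 and 1.06 without ND 3. With HCD 2 and ND 1 both left out, the median was 0.02 and 17 of 32 fold changes were positive. That alternative was added after the values were seen. It removes the highest library of one diet and the lowest of the other, so a lower median follows from the choice. The 95% interval of 29 of the 32 fold changes held 0, and that of 30 held 1, so at this spread a log2 fold change of 1 could not be told from 0 for most of them. The highest ND library exceeded the lowest by more than the fold between the diet means for 31 of the 32 genes, the exception being Gata3.

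**Figure D2:**
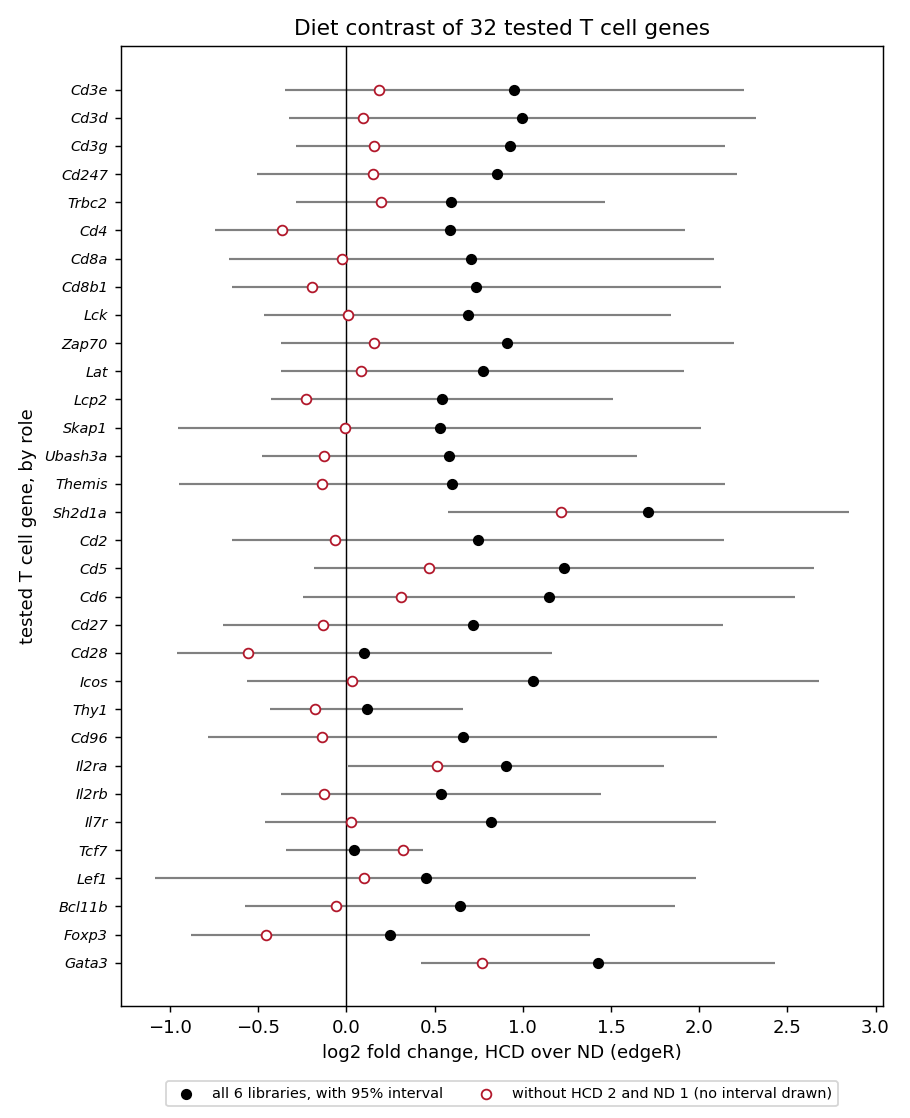
Log2 fold change of HCD over ND for the 32 tested T cell genes in all 6 libraries (filled points, with 95% intervals), and without HCD 2 and ND 1 (open points). All 32 filled points lie right of 0 with 29 intervals across it, and 17 open points lie right of 0.

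Genes of the receptor complex had higher means in HCD tumours, by 1.51-fold for Trbc2 to 2.00-fold for Cd3d, and all 5 overlapped between the diets. Cd3e, a chain of the signalling module, had 8.40, 12.3 and 4.97 CPM in HCD 1 to HCD 3, against 1.52, 6.63 and 5.10 CPM in ND 1 to ND 3. Its means were 8.57 ± 3.68 CPM in HCD and 4.42 ± 2.62 CPM in ND tumours (SD, n = 3 each), or 0.95 ± 0.55 SE in log2 fold change, with a 95% interval of -0.35 to 2.25 and an edgeR adjusted p of 0.839. HCD 3 lay inside the ND values, and the log2 fold change was 0.19 without HCD 2 and ND 1. A predicted gene on the opposite strand, Gm48719, shares exon sequence with Cd3e.

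Cd3g, the gamma chain, had 10.7, 16.9 and 7.02 CPM in HCD tumours, against 2.28, 7.38 and 8.50 CPM in ND tumours, which is 0.93 ± 0.51 SE in log2 fold change. The delta chain gene Cd3d had 4.01, 8.32 and 3.41 CPM in HCD tumours, against 0.939, 3.10 and 3.84 CPM in ND tumours, or 1.00 ± 0.56 SE on the log2 scale of HCD over ND. ND 3 was above HCD 3 for both. Cd247, the zeta chain with the longest signalling tail of the complex, had 4.58, 6.09 and 2.93 CPM in HCD tumours, against 0.760, 2.65 and 4.13 CPM in ND tumours, with a log2 fold change at 0.85 ± 0.57 SE. ND 3 again exceeded HCD 3.

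Trbc2, a constant region of the receptor's beta chain, varied least within the complex, 3.27-fold over the 6 libraries, with 9.65, 9.09 and 5.17 CPM in HCD tumours, against 2.95, 6.21 and 6.70 CPM in ND tumours. Its log2 fold change was 0.59 ± 0.37 SE, and it was highest in HCD 1, not in HCD 2. Its near-identical neighbour Trbc1 had a log2 fold change of 0.81, and how reads were shared between them is unknown. The alpha chain constant region Trac had a mean of 9.52 CPM in HCD and 6.38 CPM in ND tumours.

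The coreceptors CD8 and CD4 both lay higher on average in HCD tumours, and neither parted the diets. Cd8a had 32.4, 41.8 and 16.9 CPM in HCD 1 to HCD 3, against 5.54, 20.7 and 29.5 CPM in ND 1 to ND 3. ND 3 stood next to HCD 1, and HCD 3 below ND 2. Cd8b1, the beta chain of CD8, had 9.17, 16.6 and 5.02 CPM in HCD tumours, against 2.23, 6.97 and 9.28 CPM in ND tumours. Cd4 had 6.61, 13.9 and 4.53 CPM in HCD tumours, against 2.28, 5.68 and 8.70 CPM in ND tumours, so its second highest library was ND 3. The log2 fold changes were 0.71 ± 0.58 SE for Cd8a, 0.74 ± 0.59 SE for Cd8b1 and 0.59 ± 0.56 SE for Cd4 (edgeR adjusted p of 0.845, 0.843 and 0.858). Without HCD 2 and ND 1 they were -0.03, -0.19 and -0.37.

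Per gene length, Cd8a exceeded Cd4 in all 6 libraries. The ratio of Cd8a to Cd4 in FPKM was 3.16, 1.94 and 2.40 in HCD 1 to HCD 3, against 1.57, 2.35 and 2.19 in ND 1 to ND 3. The 4 libraries other than HCD 1 and ND 1 stayed between 1.94 and 2.40. On the log2 scale the ratio averaged 1.29 ± 0.35 in HCD and 1.00 ± 0.31 in ND tumours (SD, n = 3 each), a difference of 0.29 with an exact two-sided permutation p of 0.4, where 3 against 3 libraries cannot go below 0.1. Over the fits without 1 library the difference ran from 0.11 without HCD 1 to 0.46 without HCD 2. With Cd8b1 in place of Cd8a, the ratio to Cd4 was 4.64, 3.996 and 3.70 in HCD tumours, against 3.28, 4.10 and 3.57 in ND tumours, a log2 difference of 0.17 (exact permutation p of 0.3). The level of Cd8a itself spanned a 5.33-fold range within ND tumours alone.

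**Figure D3:**
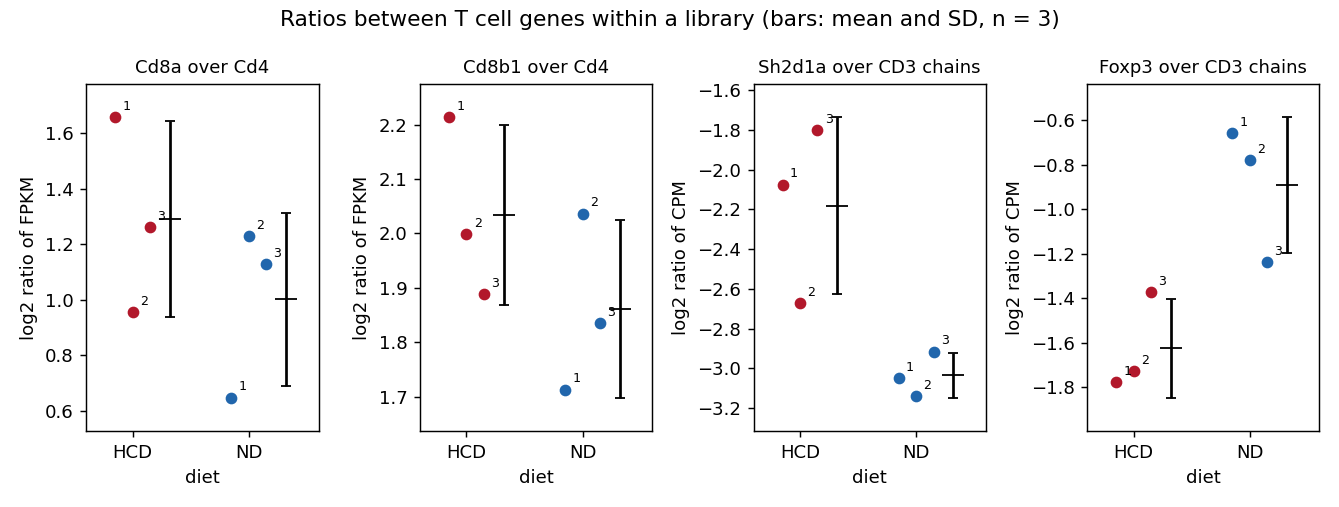
Ratios within a library, by diet (HCD left of ND, points numbered by tumour, bars mean and SD of 3 libraries), as log2 of FPKM for Cd8a and Cd8b1 over Cd4 and log2 of CPM for Sh2d1a and Foxp3 over the geometric mean of the CD3 chains. The coreceptor ratios overlap between the diets, Sh2d1a over CD3 is higher in all 3 HCD tumours, and Foxp3 over CD3 is lower in all 3.

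Some cells other than T cells use these coreceptor genes, since some cross-presenting dendritic cells carry CD8 alpha and plasmacytoid dendritic cells can carry CD4. All 6 cross-presenting markers had counts in every library, with a summed level of 79.2 to 139 CPM in HCD and 58.3 to 113 CPM in ND tumours. All 5 plasmacytoid markers had counts in every library, with 3.12 to 14.3 CPM in HCD and 2.10 to 7.80 CPM in ND tumours. The highest sums, in HCD 1 and ND 2, held 8.20 and 3.82 CPM of Cox6a2 alone, which had 0.0894 CPM in ND 1. The part of these dendritic cells in the levels of Cd8a and Cd4 was not tested.

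The signalling genes had positive log2 fold changes in 8 of 8 tested cases, and 7 of the 8 overlapped between the diets. Lck had 13.2, 18.2 and 8.82 CPM in HCD tumours, against 3.08, 11.4 and 10.4 CPM in ND tumours, which is 0.69 ± 0.49 SE in log2 fold change. Zap70 had 6.61, 10.54 and 5.27 CPM in HCD tumours, against 1.25, 4.96 and 5.68 CPM in ND tumours, or 0.91 ± 0.54 SE on the log2 scale of HCD over ND. In both, HCD 3 lay among ND 2 and ND 3 or below them. Lat, the membrane scaffold that Zap70 phosphorylates, had a log2 fold change of 0.77 ± 0.48 SE. Themis, a protein needed in thymic selection, had 0.60 ± 0.65 SE, and Ubash3a, a phosphatase-like brake on receptor signalling, 0.58 ± 0.45 SE. Skap1, an adaptor for integrin adhesion, had 0.53 ± 0.63 SE on mean levels of 1.24 CPM in HCD and 0.854 CPM in ND tumours.

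Lcp2, the adaptor SLP-76, was the most abundant signalling gene by CPM, with 31.8, 74.6 and 34.2 CPM in HCD tumours, against 19.1, 43.7 and 33.6 CPM in ND tumours. Here ND 2 exceeded both HCD 1 and HCD 3. SLP-76 is also used by myeloid and mast cells, and HCD 2 was the highest library for the summed macrophage and mast cell markers too. The log2 fold change of Lcp2 was 0.54 ± 0.41 SE, and -0.23 without HCD 2 and ND 1. Sit1, a membrane adaptor that dampens receptor signals, had 20, 12 and 6 counts in HCD tumours and 6, 8 and 9 counts in ND tumours, and was too low for the test.

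Sh2d1a did not overlap and had the largest log2 fold change of the tested T cell genes. It encodes SAP, the small adaptor that couples SLAM family receptors to the kinase Fyn and is needed for T cell help to B cells. It had 35, 39 and 29 counts in HCD 1 to HCD 3, against 4, 16 and 15 counts in ND 1 to ND 3, which are 1.69, 1.89 and 1.41 CPM against 0.179, 0.606 and 0.729 CPM. The groups did not overlap, and ND 1 was the lowest library here too. Its log2 fold change was 1.71 ± 0.48 SE, with a 95% interval of 0.57 to 2.85, an unadjusted p of 0.00931 and an edgeR adjusted p of 0.839. Leaving out 1 library kept it between 1.31 (without ND 1) and 2.05 (without ND 3), and without HCD 2 and ND 1 it was 1.21. Tenm1, which shares exon sequence with it on the opposite strand, had at most 1 count in a library.

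Surface and costimulatory genes had log2 fold changes from 0.10 for Cd28 to 1.24 for Cd5. Cd5, which sets the threshold of receptor signalling, had 5.79, 8.13 and 3.46 CPM in HCD tumours, against 0.670, 3.67 and 3.01 CPM in ND tumours, with a log2 fold change at 1.24 ± 0.60 SE. Its relative Cd6 had 9.03, 14.0 and 4.83 CPM in HCD tumours, against 1.34, 6.21 and 4.96 CPM in ND tumours, which is 1.15 ± 0.59 SE in log2 fold change. Without HCD 2 and ND 1 these were 0.47 and 0.31. Cd2, an adhesion receptor, had 0.75 ± 0.59 SE, Cd27, a costimulatory receptor of the TNF receptor family, 0.72 ± 0.60 SE, and Cd96, an adhesion receptor shared with NK cells, 0.66 ± 0.61 SE.

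Icos and Cd28 are related costimulatory receptors and differed in pattern. Icos had 3.91, 9.43 and 3.998 CPM in HCD tumours, against 0.581, 3.98 and 3.74 CPM in ND tumours. Apart from HCD 2 and ND 1, the 4 other libraries stayed within 3.74 to 3.998 CPM. Its log2 fold change was 1.06 ± 0.68 SE with all libraries and 0.03 without HCD 2 and ND 1. Cd28 had 9.41, 14.3 and 6.09 CPM in HCD tumours, against 4.96, 8.10 and 14.7 CPM in ND tumours, with its highest level in ND 3. The log2 fold change of Cd28 was 0.10 ± 0.45 SE, and -0.25 without HCD 2 and -0.20 without ND 1.

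Cd40lg, the ligand by which activated helper T cells act on CD40, was near the limit of detection. It had 3, 7 and 5 counts in HCD tumours, against 0, 1 and 1 counts in ND tumours. All HCD libraries were above all ND libraries, on 15 counts against 2 in total, a ratio of 8.40 with a 95% interval of 1.95 to 75.7 that covers counting error only. A count of 3 in 1 library is 0.114 to 0.146 CPM, the limit that the 0 in a library allows, and all 3 ND libraries lay under it. With no filter on low counts, edgeR gave it an adjusted p of 0.823.

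Among the cytokine receptors, Il2ra was the steadiest in HCD tumours. This gene, the alpha chain of the interleukin 2 receptor and a mark of regulatory and recently activated T cells, had 4.49, 4.93 and 4.34 CPM in HCD tumours, against 1.16, 3.29 and 2.87 CPM in ND tumours. The groups did not overlap, and the 3 HCD libraries spanned 1.14-fold, where Cd3e spanned 2.48-fold. Its log2 fold change was 0.91 ± 0.38 SE, with a 95% interval of 0.01 to 1.803, an unadjusted p of 0.0482 and an edgeR adjusted p of 0.839. It was 0.57 without ND 1 and 0.52 without HCD 2 and ND 1.

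Il2rb, the beta chain that NK cells also carry, had 24.7, 42.3 and 21.6 CPM in HCD tumours, against 10.6, 25.2 and 25.3 CPM in ND tumours, or 0.54 ± 0.38 SE on the log2 scale of HCD over ND. ND 2 and ND 3 both exceeded HCD 1 and HCD 3. Il7r, the receptor for the survival factor interleukin 7, had a log2 fold change of 0.82 ± 0.54 SE. Its level in ND 2, 6.399 CPM, was above HCD 1 at 6.37 CPM and HCD 3 at 4.24 CPM.

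**Figure D4:**
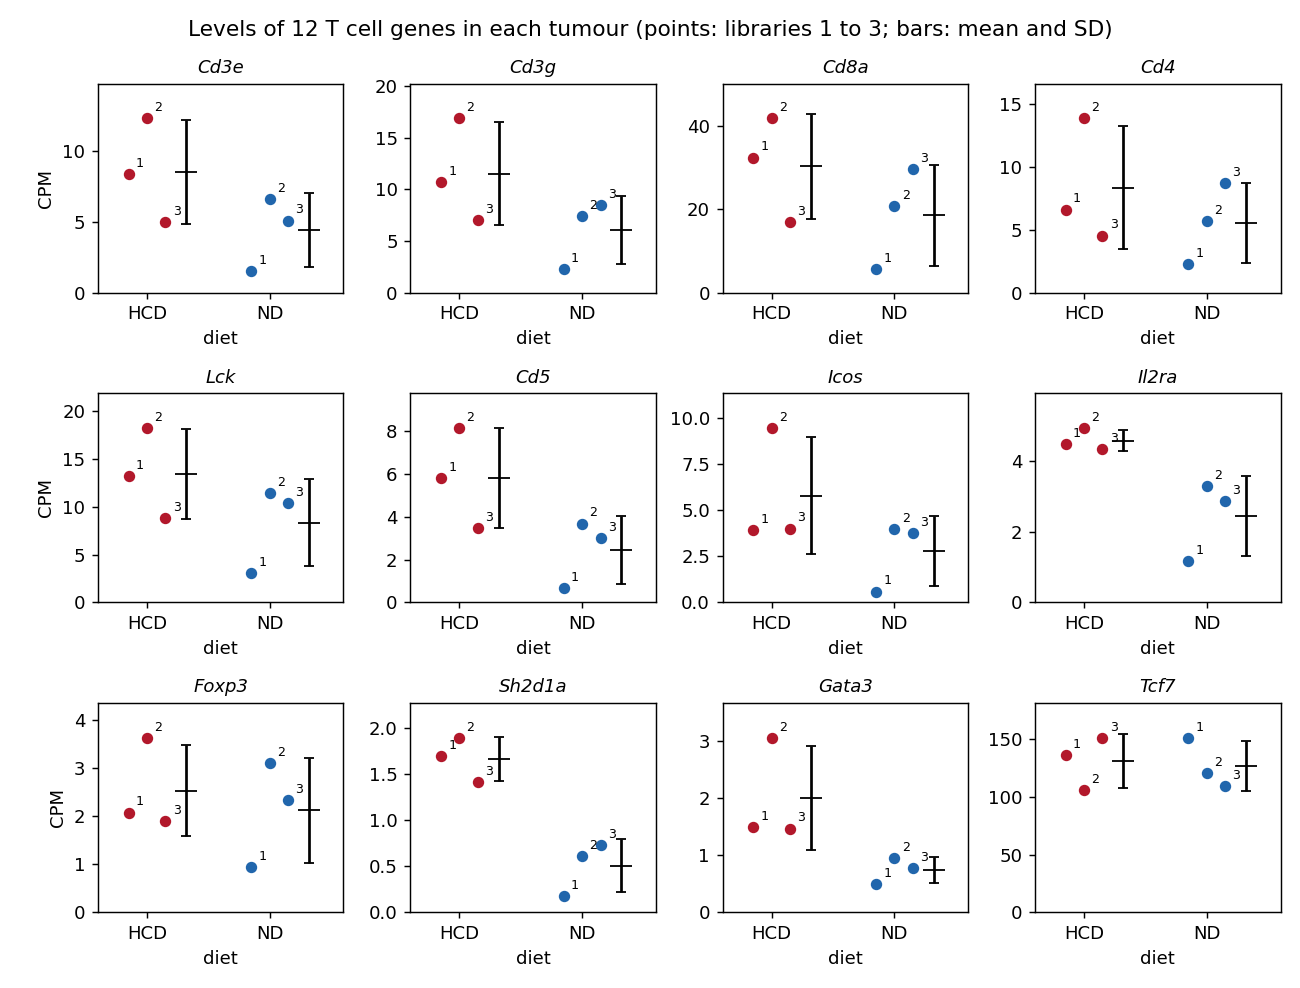
CPM of 12 T cell genes in each tumour, HCD left of ND, with points numbered by tumour and bars for the mean and SD of 3 libraries. Sh2d1a, Gata3 and Il2ra do not overlap between the diets, the other genes shown overlap, and Tcf7 is highest in HCD 3 and ND 1 at 151 CPM.

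The lineage factors had log2 fold changes from 0.05 for Tcf7 to 1.43 for Gata3. Bcl11b, which keeps cells in the T lineage, had 5.02, 6.92 and 2.83 CPM in HCD tumours, against 1.25, 3.67 and 4.52 CPM in ND tumours, with a log2 fold change at 0.64 ± 0.51 SE. Lef1, a partner of beta-catenin in early T cells, had a mean of 0.662 CPM in HCD and 0.480 CPM in ND tumours, which is 0.45 ± 0.65 SE in log2 fold change, and -0.03 without ND 1. Tcf7, which encodes TCF1, a factor of early and memory-like T cells, had 136, 106 and 151 CPM in HCD tumours, against 151, 121 and 109 CPM in ND tumours. ND 1, lowest for the CD3 chains, was among the highest for Tcf7, and HCD 2, highest for the CD3 chains, was lowest for it. In log2 fold change it had 0.05 ± 0.16 SE, and -0.07 without HCD 3 and -0.05 without ND 3. Tcf7 is also used outside T cells as an effector of Wnt signalling, and its order over the libraries did not follow the T cell genes.

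Thy1, a surface protein of mouse T cells that fibroblasts also carry, was likewise apart, with 45.3, 64.4 and 35.0 CPM in HCD tumours, against 42.9, 38.0 and 52.7 CPM in ND tumours. In log2 fold change it had 0.11 ± 0.23 SE, and -0.14 without HCD 2. All 7 fibroblast markers had counts in every library, with a summed level of 2522 to 3668 CPM in HCD and 2733 to 3988 CPM in ND tumours, and their part in Thy1 was not tested.

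Gata3, which drives type 2 helper cells and innate lymphoid cells and is also needed early in the T lineage, did not overlap between the diets. It had 31, 63 and 30 counts in HCD tumours, against 11, 25 and 16 counts in ND tumours, or 1.496, 3.05 and 1.46 CPM against 0.492, 0.947 and 0.777 CPM. Its log2 fold change was 1.43 ± 0.42 SE, with a 95% interval of 0.42 to 2.43, an unadjusted p of 0.0122 and an edgeR adjusted p of 0.839, and it was 0.77 without HCD 2 and ND 1. The gene shares exon sequence with the predicted gene Gm13256 on the opposite strand and with 9230102O04Rik, which had 0 counts. Foxp3, the factor of regulatory T cells, had 2.08, 3.63 and 1.90 CPM in HCD tumours, against 0.939, 3.10 and 2.33 CPM in ND tumours. With a log2 fold change of 0.25 ± 0.48 SE it had the smallest value after Tcf7, Cd28 and Thy1, and it was -0.09 without HCD 2 and -0.10 without ND 1.

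In all, 4 of the 34 genes (Sh2d1a, Gata3, Il2ra and Cd40lg) had all 3 HCD libraries above all 3 ND libraries, where 4.75% of tested genes did, and none had them all below, where 6.36% did. The count moved with the libraries used: 20 genes did not overlap without HCD 3, 7 without ND 2 and 8 without ND 3, where 24.0%, 26.8% and 18.5% of all tested genes did not. Without HCD 2 and ND 1 there were 7, where 35.4% of all tested genes did not.

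To set each gene against the T cell level of its own library, its CPM was divided by the geometric mean of the CD3 chains. This could be done for 30 genes, leaving out the chains themselves and Cd40lg. For 14 of the 30 the log2 ratio spanned under 1 over the 6 libraries, with Zap70 spanning 0.34 and Cd2 0.37, while Tcf7 spanned 3.53 and Thy1 2.43. The HCD minus ND difference of the ratio had a median of -0.24 over the 30 genes and of -1.08 over all tested genes, since the denominator itself was higher in HCD tumours.

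Sh2d1a was higher per CD3 in all 3 HCD tumours. Its log2 ratio was -2.07, -2.67 and -1.799 in HCD 1 to HCD 3, against -3.05, -3.14 and -2.92 in ND 1 to ND 3, a difference of 0.85. Of 15472 tested genes with counts in all libraries, 0.00646% had all HCD ratios above all ND ratios, and Sh2d1a was that 1 gene. That share is small because the denominator was higher in HCD tumours, with a median difference of -1.08 over all tested genes. It is therefore no measure of how unusual Sh2d1a was. Sh2d1a also had the largest log2 fold change of the tested T cell genes in these same counts. With Cd2, Cd5 and Lck as the denominator, the lowest HCD ratio was -2.62 and the highest ND ratio -2.94. With Cd3e alone they were -2.71 and -2.81, so the diets were only just apart. Cd3e is itself 1 of the CD3 chains, so that denominator is not an independent check. The ND values rest on 4, 16 and 15 counts.

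Foxp3 was lower per CD3 in all 3 HCD tumours, at -1.78, -1.73 and -1.37, against -0.66, -0.78 and -1.24 in ND tumours, a difference of -0.73. It did not overlap with Cd3e alone or with Cd2, Cd5 and Lck as the denominator either. Set against Cd4, the coreceptor of regulatory T cells, it did overlap: the log2 ratio of Foxp3 to Cd4 in FPKM was -2.11, -2.37 and -1.69 in HCD tumours, against -1.72, -1.31 and -2.33 in ND tumours, a difference of -0.27 (exact two-sided permutation p of 0.5). Cd28, Il2rb, Lck, Ubash3a and Thy1 were the 5 other genes below, making 6 of 30, where 14.9% of all tested genes were below, so a gene lower per CD3 in all HCD libraries was common. With Cd3e alone 2 genes were above and 2 below, and with Cd2, Cd5 and Lck 1 was above and 2 below, where 8.33% and 9.20% of all tested genes were apart in either direction. Without 1 library, 9 genes (without HCD 3, ND 1 or ND 3) to 14 genes (without ND 2) were apart, where 80.7%, 15.2%, 28.1% and 26.0% of all tested genes were. Without HCD 2 and ND 1 there were 13, where 17.7% of all tested genes were apart. Gata3, at -2.25, -1.98 and -1.75 in HCD tumours and -1.59, -2.49 and -2.82 in ND tumours, overlapped once it was set against CD3. So did Il2ra, at -0.66, -1.28 and -0.18 in HCD tumours and -0.35, -0.70 and -0.94 in ND tumours.

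Other genes of the receptor pathway, from a list of 32 that are not among the 34, were higher on average in HCD tumours in 26 of 31 tested cases, with a median log2 fold change of 0.30. None passed the edgeR test, and 1 of the 31 had an unadjusted edgeR p under 0.05, where 5.30% of all tested genes did. That gene was Dgka, a lipid kinase that limits diacylglycerol signals in T cells, with 60.8 ± 6.66 CPM in HCD and 49.3 ± 1.83 CPM in ND tumours (SD, n = 3 each), or 0.30 ± 0.10 SE on the log2 scale of HCD over ND and an edgeR adjusted p of 0.839. Ptprc, which encodes the leucocyte phosphatase CD45 and was the most abundant of the list, had 154 ± 63.8 CPM in HCD and 114 ± 40.5 CPM in ND tumours, with a log2 fold change at 0.43 ± 0.36 SE. The log2 fold changes ran from -0.15 for Plcg1, the phospholipase of the pathway, to 0.87 for Grap2, an adaptor that binds SLP-76. Without HCD 2 and ND 1 the list's median was -0.08, with 11 of 31 positive.

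Regulatory T cell markers other than Foxp3 had positive log2 fold changes in 7 of 7 tested cases, with a median of 0.18. Ikzf2, the most abundant of them, had 8.22 ± 1.58 CPM in HCD and 7.26 ± 2.23 CPM in ND tumours, and Izumo1r, which had the smallest p, had a log2 fold change of 0.91 ± 0.61 SE (edgeR adjusted p of 0.896 and 0.839). The 4 markers of naive and circulating T cells had a median of 0.30, with S1pr1, the receptor that guides exit from lymph nodes, at 25.0 ± 5.09 CPM in HCD and 19.8 ± 1.38 CPM in ND tumours. Gamma delta T and innate lymphoid markers had positive fold changes in 3 of 5 tested cases, with Rora, the most abundant of them, at a log2 fold change of -0.15 ± 0.17 SE.

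Markers of several other cell types had the same extreme libraries as the CD3 chains. HCD 2 was the highest library for the summed NK, macrophage and monocyte, mast cell, cross-presenting dendritic cell and endothelial markers, and ND 1 was the lowest for all 5. NK cell markers, all 10 with counts in every library, summed to 13.3, 23.6 and 12.2 CPM in HCD tumours, against 6.88, 12.3 and 15.2 CPM in ND tumours. Macrophage and monocyte markers, all 10 with counts in every library, summed to 868, 1447 and 662 CPM in HCD tumours, against 459, 921 and 803 CPM in ND tumours. In both, HCD 3 lay below ND 2 and ND 3, as it did for the CD3 chains.

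Mast cell markers, all 8 present in every library, summed to 67.1, 198 and 87.6 CPM in HCD tumours, against 38.6, 94.7 and 98.2 CPM in ND tumours. Endothelial markers, all 5 present, summed to 169, 319 and 153 CPM in HCD tumours, against 137, 159 and 174 CPM in ND tumours. B cell markers had another order, with 24.3, 14.0 and 3.12 CPM in HCD tumours, against 5.01, 7.57 and 7.29 CPM in ND tumours, and 7 of 9 had counts in all 6 libraries. HCD 1 was their highest library and HCD 3 their lowest.

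Lymph node stroma markers also had HCD 1 highest, HCD 2 next and HCD 3 lowest, with 12.9, 6.19 and 1.95 CPM in HCD tumours, against 4.38, 4.17 and 3.59 CPM in ND tumours. Of the 6 listed, 5 were matched in the table and 2 of these had counts in all libraries, and Ccl21a, a chemokine of lymph node stroma, had 117, 52 and 6 counts in HCD tumours, against 0, 32 and 10 counts in ND tumours. The CD3 chains were highest in HCD 2, not in HCD 1. No gene of these marker lists passed the edgeR test. Hepatocyte markers, of which Alb was the most abundant, summed to 6319 to 8401 CPM in HCD and 6598 to 7814 CPM in ND tumours, with HCD 2 lowest, and their 6 log2 fold changes ran from -0.38 for Hnf4a to 0.68 for Ttr. The part of these cells in the T cell gene levels was not tested. Since the tissue was not sorted, RNA of NK cells in particular cannot be told apart from T cell RNA. This holds for genes such as Il2rb, Cd247, Cd2, Cd27, Cd96, Lck and Zap70, which are examples and not a full list.

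**Figure D5:**
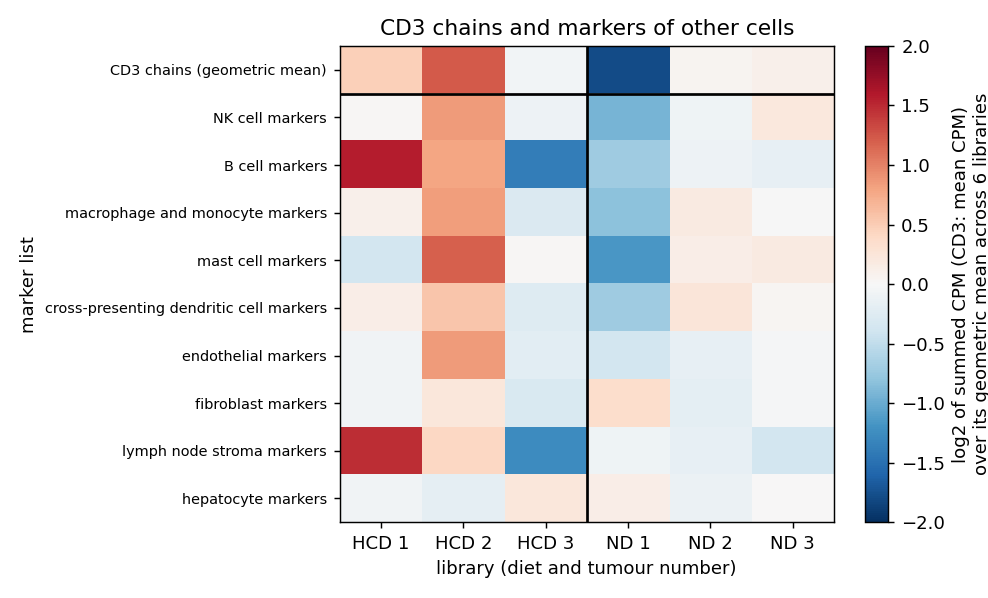
Summed CPM of marker lists, and the geometric mean CPM of the CD3 chains in the top row, in each library as log2 over the geometric mean across the 6 libraries (columns, HCD left of ND). The CD3 row runs from 1.23 in HCD 2 to -1.79 in ND 1, the NK, macrophage, mast cell and dendritic cell rows share those extremes, and the B cell and lymph node rows are highest in HCD 1.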

How the data were processed

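RNA-seq of 6 tumours, 3 per diet, was analysed from 1 deposited table of the whole series. For every gene that table holds an unnormalised count and an FPKM value (which also takes out transcript length and sequencing depth) for each sample, both computed by the authors, per the file headers. The submitters' processing notes name the mm10 build, CASAVA 1.8, TopHat2 2.0.9, HTSeq and edgeR, without roles or order; the annotation release, strand setting and treatment of multi-mapped reads are not given in the sources used here.

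Counts were tested with the edgeR 4.0.16 quasi-likelihood test (R 4.3.3, TMM factors, filterByExpr with a minimum count of 10 and a total of 15), diet as the only term, and Benjamini-Hochberg adjustment at 0.05 over 15539 genes. Errors of fold changes are standard errors from the fit, and intervals are 95%. DESeq2 1.42.0, limma 3.58.1 (voom, and log2(FPKM + 1)), other scalings and filters, and fits leaving out libraries were alternatives. Ratios of single genes were compared by exact permutation over libraries. The test was checked on simulated counts. Depth was 20351637 to 26228074 counts, so 3 counts in a library, the limit that a count of 0 allows, are 0.114 to 0.146 CPM; this limit and counting intervals cover counting error only. Gene positions and overlaps come from GENCODE M21 on GRCm38. Exon sequence is shared with other annotated genes by 12 of the 34 genes, and reads of overlapping genes on opposite strands may not be told apart. Within the other lists, the genes with the smallest p and with the highest level were named (1 such result is not reported here), and others singled out (the extremes of the receptor pathway list, Trbc1, Trac) were chosen after their values were seen. The 34 genes and all lists were chosen with earlier results of these data known.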

Additional observations from a re-analysis of the deposited data

How the results depend on the processing

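There were 10 settings other than leaving out a library: scalings, filters, DESeq2, limma-voom, adjusted deviances, FPKM with both pseudocounts and the replicate block. Under them no T cell gene passed and none tested there changed sign. For many T cell genes DESeq2 gave no adjusted p, so these could not pass in that setting. Both FPKM settings tested only 21 of the 34 T cell genes. Sh2d1a, Gata3 and Il2ra were not among them and could not pass there. The medians, taken over 21 to 34 genes by setting, ran from 0.54 to 0.86. The same-numbered libraries did not pair (correlations of deviations -0.265, 0.117 and 0.0812), and the fit with replicate as a block gave a median of 0.82 with 0 genes past the threshold and a Cd8a over Cd4 difference of 0.29. Over the fits without 1 library, the T cell genes and the other pathway genes past the threshold stayed at 0. The median ran from 0.30 to 1.06 and the Cd8a over Cd4 difference from 0.11 to 0.46. The genes without overlap ran from 4 to 20. At 20, without HCD 3, the share of all tested genes was 24.0%, and at 4, without HCD 2 or ND 1, it was not taken. Those apart relative to CD3 ran from 9 to 14. At 14, without ND 2, 26.0% of all tested genes were apart. At 9, the shares were 80.7% without HCD 3, 15.2% without ND 1 and 28.1% without ND 3. In these fits 5 genes changed sign: Cd28 ran from -0.25 to 0.60, Thy1 from -0.14 to 0.30, Foxp3 from -0.10 to 0.64, Tcf7 from -0.069 to 0.19 and Lef1 from -0.032 to 0.89. With Cd3e alone as the denominator 4 genes were apart, and with Cd2, Cd5 and Lck 3, where 8.33% and 9.20% of all tested genes were.

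Without both HCD 2 and ND 1, an alternative chosen after seeing the data, the median was 0.019, 7 genes did not overlap, where 35.4% of all tested genes did not, and 13 were apart relative to CD3, where 17.7% of all tested genes were. The log2 fold change was then negative for 15 genes: Cd4 -0.37, Cd8a -0.027, Cd8b1 -0.19, Lcp2 -0.23, Skap1 -0.010, Ubash3a -0.12, Themis -0.14, Cd2 -0.066, Cd27 -0.13, Cd28 -0.56, Thy1 -0.18, Cd96 -0.14, Il2rb -0.12, Bcl11b -0.061 and Foxp3 -0.45. Lower values for most genes follow from the choice of these libraries, and no other cause of the shifts was tested. Genes under about 1 CPM, such as Sit1, Cd40lg, Lef1 and Sh2d1a in ND tumours, rest on few counts.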
